A study of Oryctolagus cuniculus with 3 samples.

Results

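The genes described here are 10 regulators of cellular energy balance and of the making of mitochondria, out of 20536 gene names in the deposited tables. They were chosen by symbol: the rows whose gene name equals PRKAA1, PRKAA2, PRKAB1, PRKAB2, PPARGC1A, PPARGC1B, PPRC1, ESRRA, NRF1 or TFAM, with the fragment counts of a gene's coding sequences added together. All 10 were found. RNA was sequenced from RCE1(5T5), an established line of rabbit corneal epithelial cells that differentiates in culture, with 1 library for each of 3 stages. Day 4 cultures were labelled non-differentiated, day 6 cultures committed and day 10 cultures terminally differentiated. The cells of every stage grew with serum, insulin, transferrin, hydrocortisone, triiodothyronine, cholera toxin, adenine and epidermal growth factor on mitomycin C-treated 3T3 mouse fibroblasts, which were detached with EDTA before the RNA was taken. All 3 libraries come from 1 cell line, and stage, day in culture and library cannot be told apart. Sequencing depth was 10171693 fragments for day 4, 12582706 for day 6 and 10899578 for day 10.

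AMP-activated protein kinase (AMPK) is a complex of a catalytic alpha, a scaffolding beta and a nucleotide-binding gamma subunit that is switched on when AMP or ADP rises against ATP. It favours pathways that yield ATP over those that spend it. The PGC-1 coactivators bind nuclear factors such as ESRRA and NRF1 and raise the transcription of respiratory genes and of TFAM, the protein that packs mitochondrial DNA (mtDNA) and starts its transcription. The best known member, PPARGC1A, is abundant in brown fat, heart and muscle, whereas PPRC1 was described in mammalian cell lines as a coactivator that serum induces in growing cells.

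Levels are given as fragments scaled to library size (counts per 1000000, CPM) and corrected with edgeR's TMM factors (trimmed mean of M values). Genes with 1 CPM or more in any library count as measured; these were 12818 genes, among them 9 of the 10 regulators. The words rose and fell are kept for differences of log2(CPM + 1) that reach 2-fold between a pair of stages. Brackets give exact 95% intervals, which cover counting error only. With 1 library per stage, no difference has a replicate check, no test was possible and no p-value is given. In RNA from whole cultures, fewer cells that express a gene and less RNA per cell cannot be told apart.

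Between day 4 and day 10 the regulators lay lower rather than higher: 5 of 9 measured genes fell and 0 rose. Over all measured genes 15.8% fell and 17.1% rose. The 5 were PPRC1, PPARGC1B, PRKAB1, PRKAB2 and TFAM. PPRC1 had the largest fall of the 9, and both beta genes and PPRC1 kept the call under each scaling, pseudocount and filter tried. The median difference was -1.12 on the log2 scale for the regulators and 0.01 for all measured genes. The catalytic subunit PRKAA1 and the nuclear receptor ESRRA ended near their day 4 level in CPM. With the deposited TPM values their log2 differences were -0.33 and -0.53, beside a median of -0.31 for all genes. The second catalytic subunit PRKAA2 was the only one of the 9 that ended above its day 4 level.

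Markers of cell type and growth moved over the same days. Of 8 epithelial markers 5 rose and 0 fell on day 10 against day 4, or 4 and 1 with TPM and with total counts, and their sum was 16331, 25044 and 16959 CPM on days 4, 6 and 10. The corneal keratin gene KRT3 was at 150, 954 and 2018 CPM, and KRT12, also a corneal keratin gene, at 0, 19.3 and 121 CPM, so the day 4 library held no KRT12 fragment. The 3 that lay below day 4 on day 10 were the general epithelial genes CDH1, at 155 CPM on day 10 against 291 on day 4, EPCAM, at 95.3 against 127, and KRT5, at 13552 against 15650. Of 13 measured fibroblast markers 11 fell and 1, THY1, rose over that interval, and their sum was 4912, 3141 and 1725 CPM. LUM was at 0 in all 3 libraries, while COL1A1 was at 542, 312 and 265 CPM. Of 8 proliferation markers 7 fell over that interval, with 0 falling at the first step and 6 at the second, and their sum was 1970, 1630 and 751 CPM. The part of fibroblasts and of proliferation in the differences of the regulators was not tested.

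**Figure D1:**
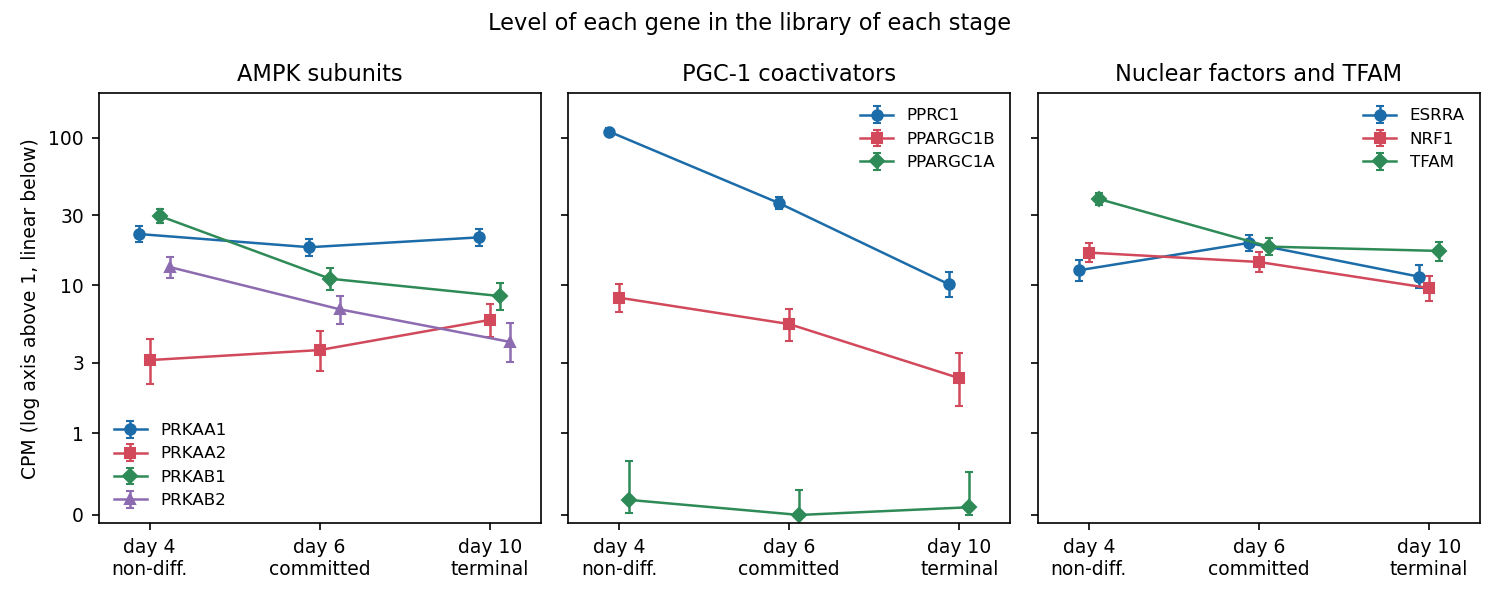
Each gene's CPM (vertical axis, log scale above 1 and linear below) in the single library of each stage (horizontal axis, by day), with exact 95% Poisson intervals as bars. PPRC1 fell at both steps and was at 10.2 CPM on day 10; both beta genes were lower on day 10 than on day 4, PRKAA1 stayed between 18.2 and 22.3 CPM, and PPARGC1A stayed under 0.2 CPM.

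The catalytic subunits carry the kinase activity, and neither of their genes rose or fell by the 2-fold rule. PRKAA1, the alpha1 subunit found in most tissues, had 243, 219 and 225 fragments on days 4, 6 and 10, which is 22.3, 18.2 and 21.2 CPM. On day 10 it stood at 0.95 times the day 4 level [0.789 to 1.14]. PRKAA2, the alpha2 subunit typical of muscle, had 34, 44 and 62 fragments, or 3.12, 3.65 and 5.84 CPM. Its day 10 level was 1.87 times that of day 4 [1.21 to 2.93]. Its difference of log2(CPM + 1) was 0.73, under the 2-fold threshold, and 0.38 with TPM. Its small difference between day 6 and day 4, 0.17, turned to -0.05 with the deposited TPM values. With TPM the median of all genes was -0.31 on day 10 against day 4 and -0.30 on day 6 against day 4.

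Per coding length, alpha1 was the larger of the pair at each stage. In TPM, the deposited unit that corrects for length and depth, PRKAA1 was at 13.2 on day 4, 8.6 on day 6 and 10.3 on day 10, and PRKAA2 at 2, 1.9 and 2.9. PRKAA1 was thus 6.6, 4.53 and 3.55 times as high as PRKAA2. The alpha2 gene took 12.3% of the alpha fragments on day 4 [8.7 to 16.7], 16.7% on day 6 [12.4 to 21.8] and 21.6% on day 10 [17 to 26.8]. This share needs no scaling between libraries. The ratio of alpha2 to alpha1 fragments was 1.97 times as high on day 10 as on day 4 [1.22 to 3.21].

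The beta subunits join alpha to gamma and bind glycogen, and both of their genes fell. PRKAB1, the beta1 gene, had 322, 134 and 90 fragments on days 4, 6 and 10, or 29.6, 11.1 and 8.48 CPM. Most of its fall came at commitment: it was 2.66-fold lower on day 6 than on day 4 [2.17 to 3.28], and 1.31-fold lower on day 10 than on day 6 [0.996 to 1.73]. PRKAB2, the beta2 gene, had 145, 83 and 44 fragments, or 13.3, 6.88 and 4.14 CPM. Its steps were more even, 1.93-fold lower on day 6 than on day 4 [1.47 to 2.56] and 1.66-fold lower on day 10 than on day 6 [1.14 to 2.45]. The first step passed the 2-fold threshold only with total counts in place of TMM and with TPM. There its log2 difference was -1.01 and -1.19, beside medians of -0.14 and -0.30 for all genes. Over the whole interval PRKAB1 was 3.49-fold lower [2.75 to 4.45] and PRKAB2 3.21-fold lower [2.28 to 4.61] on day 10 than on day 4. PRKAB1 made up 69% of the beta fragments on day 4 [64.5 to 73.1], 61.8% on day 6 [54.9 to 68.2] and 67.2% on day 10 [58.5 to 75], and these intervals overlap.

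The gamma subunits sense AMP, ADP and ATP, and their genes did not follow the beta genes. PRKAG1, the widely expressed gamma1 gene, was at 31.8, 54.7 and 49.5 CPM on days 4, 6 and 10. PRKAG2 was at 23, 21.5 and 33.3 CPM, and PRKAG3, known from skeletal muscle, at 1.01, 2.65 and 2.17 CPM. None of the 3 rose or fell by the 2-fold rule at any step. On day 10 all 3 lay above day 4, with log2 differences of 0.62 for PRKAG1, 0.51 for PRKAG2 and 0.66 for PRKAG3.

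The subunits of the complex therefore changed against each other, and these ratios within a library do not depend on the scaling. For every alpha fragment there were 1.69, 0.825 and 0.467 beta fragments on days 4, 6 and 10. The beta to alpha ratio was 3.61-fold lower on day 10 than on day 4 [2.78 to 4.69], and the beta to gamma ratio 5.16-fold lower [4.14 to 6.47]. The gamma to alpha ratio was 1.43 times as high on day 10 as on day 4 [1.17 to 1.75]. Summed per coding length, the beta genes had 47.6, 15.2 and 10.8 TPM on days 4, 6 and 10. The alpha genes had 15.2, 10.5 and 13.2 TPM, and the gamma genes 45.9, 54.5 and 54.7 TPM. Beta and gamma transcripts were thus at similar levels on day 4. On day 10 beta transcripts had the lowest sum, 10.8 TPM beside 13.2 for alpha, an order for which no counting interval was computed.

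**Figure D2:**
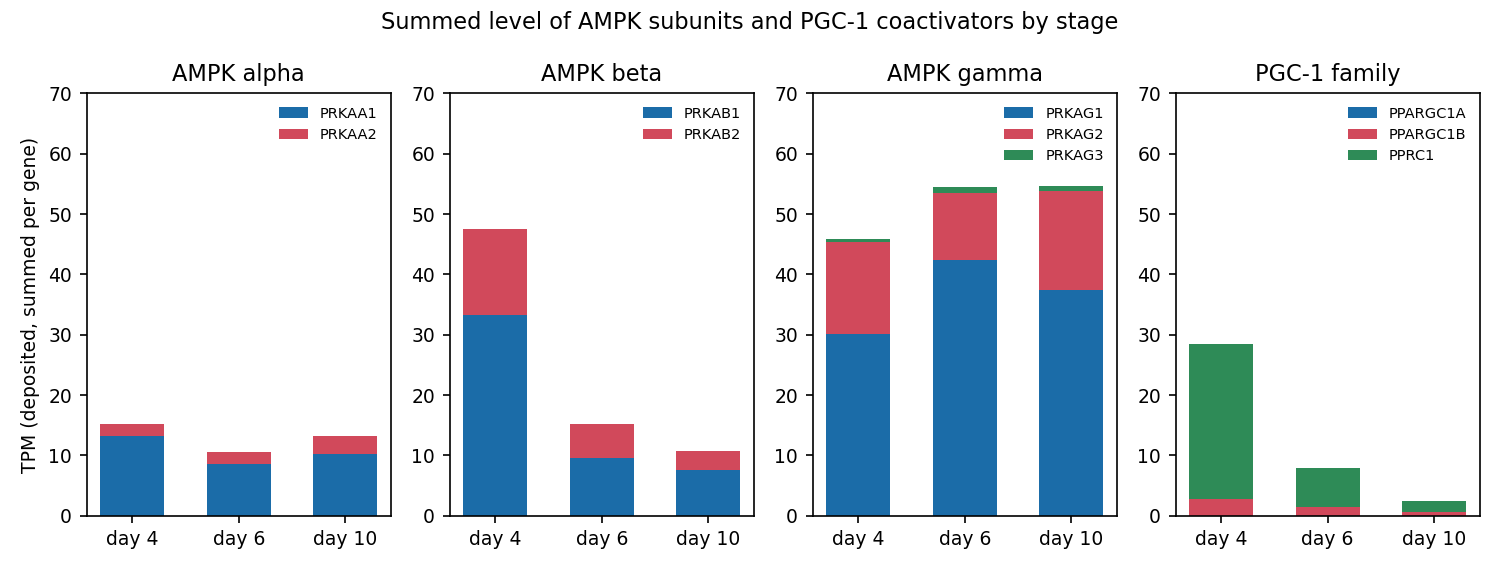
Deposited TPM summed per gene (vertical axis) at each stage (horizontal axis), stacked by gene, for the alpha, beta and gamma subunits of AMPK and for the PGC-1 coactivators. Beta transcripts shrank to 10.8 TPM on day 10 while gamma transcripts stood at 54.7 TPM, and the PGC-1 family was made up mostly of PPRC1 at each stage.

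Among the PGC-1 coactivators, PPRC1 was both the most abundant and the one that fell most. It had 1204, 436 and 108 fragments on days 4, 6 and 10, or 110.5, 36.2 and 10.2 CPM. It was 3.06-fold lower on day 6 than on day 4 [2.74 to 3.42] and a further 3.55-fold lower on day 10 than on day 6 [2.87 to 4.43]. Over the whole interval it was 10.9-fold lower [8.92 to 13.4], and only 0.27% of measured genes had a lower difference. PPRC1 was the only regulator that fell at both steps. Its fragments were divided among 6 coding sequences, each of which was between 10.5-fold and 11.3-fold lower on day 10 than on day 4. Their counts are fractional and are read here as shares of common fragments, so the 6 values are not taken as separate measurements.

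PPARGC1B, or PGC-1beta, had 90, 66 and 25 fragments on days 4, 6 and 10, or 8.26, 5.47 and 2.35 CPM. It was 3.51-fold lower on day 10 than on day 4 [2.23 to 5.7], a call that was lost with a pseudocount of 5, where the log2 difference was -0.85. Between day 10 and day 6 the CPM ratio was 2.32-fold lower [1.45 to 3.85], while the difference on the log2(CPM + 1) scale was -0.95 and missed the threshold. It passed with a pseudocount of 0.1, at -1.18.

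PPARGC1A had 2, 0 and 1 fragments on days 4, 6 and 10. The limit that a count of 0 allows, 3 fragments, is 0.275, 0.249 and 0.283 CPM on days 4, 6 and 10, so all 3 libraries were at or under it and no fold is given. The TPM of the 3 coactivators together was 28.4 on day 4, 7.9 on day 6 and 2.4 on day 10, of which PPRC1 made up 90.5%, 82.3% and 75%. PPRC1 fell faster than PPARGC1B: the ratio of PPARGC1B to PPRC1 fragments was 3.09 times as high on day 10 as on day 4 [1.82 to 5.11].

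The nuclear factors that these coactivators bind moved less. ESRRA, an orphan nuclear receptor of respiratory gene promoters, had 138, 234 and 122 fragments on days 4, 6 and 10, or 12.7, 19.4 and 11.5 CPM. It was highest in the committed cells, 1.53 times the day 4 level [1.24 to 1.9], and on day 10 it was 1.69-fold lower than on day 6 [1.35 to 2.12]. Neither step reached 2-fold. The log2 difference of the first step was 0.58 with TMM and 0.25 with TPM, beside medians of 0.00 and -0.30 for all genes. On day 10 it stood at 0.907 times the day 4 level [0.705 to 1.17], so its ratio to PPRC1 fragments was 9.83 times as high as on day 4 [7.11 to 13.6]. With TPM the log2 difference of ESRRA on day 10 against day 4 was -0.53, beside a median of -0.31 for all genes.

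NRF1 here is nuclear respiratory factor 1, which is a different gene from NFE2L1, sometimes called by the same name. It had 182, 174 and 102 fragments at the 3 stages in order of day, or 16.7, 14.4 and 9.61 CPM. It was 1.74-fold lower on day 10 than on day 4 [1.36 to 2.24], short of the threshold. With TPM it met the threshold at a log2 difference of -1, beside a median of -0.31 for all genes. In CPM most of the difference between day 10 and day 4 lay in the second step, 1.5-fold lower on day 10 than on day 6 [1.17 to 1.94]. With TPM the steps were alike, with log2 differences of -0.53 on day 6 against day 4 and -0.47 on day 10 against day 6. The medians of all genes for these steps were -0.30 and -0.02 on that scale.

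TFAM fell at commitment and then held. It had 420, 221 and 182 fragments on days 4, 6 and 10, or 38.5, 18.3 and 17.1 CPM. It was 2.1-fold lower on day 6 than on day 4 [1.78 to 2.49], close to the threshold, and 2.25-fold lower on day 10 than on day 4 [1.89 to 2.69]. Both calls were lost with a pseudocount of 5, with log2 differences of -0.90 and -0.98. Between day 10 and day 6 it differed by 1.07-fold [0.875 to 1.31]. Per coding length TFAM was the highest of the 10 on day 4, with 56 TPM, against 33.3 for PRKAB1 and 25.7 for PPRC1. On day 10 the order was TFAM at 19.6, ESRRA at 12.1, PRKAA1 at 10.3, PRKAB1 at 7.5, NRF1 at 4.9, PRKAB2 at 3.3, PRKAA2 at 2.9, PPRC1 at 1.8 and PPARGC1B at 0.6 TPM. The counting interval of the TPM ratio held 1 for ESRRA over PRKAA1, 1.17 [0.935 to 1.47], and for PRKAB2 over PRKAA2, 1.14 [0.755 to 1.7], so these neighbours are not ordered beyond counting error. Only TFAM and PRKAB1 were above PPRC1 on day 4, while on day 10 only the other coactivators were below it.

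Step by step, 3 of the 9 measured regulators fell on day 6 against day 4, namely PPRC1, PRKAB1 and TFAM, beside 6.73% of all measured genes, and 0 rose, beside 8.06%. On day 10 against day 6, 1 fell, PPRC1, beside 7.1% of all measured genes, and 0 rose, beside 8.25%. The count for the second step lies near the background share. Differences below 0 were seen for 7 of the 9 at each step and for 8 of the 9 over the whole interval. Of the 12818 measured genes, 6405 and 6490 lay below 0 at the steps and 6342 over the whole interval. The difference over the whole interval is the sum of both steps, so its count is not separate from theirs.

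**Figure D3:**
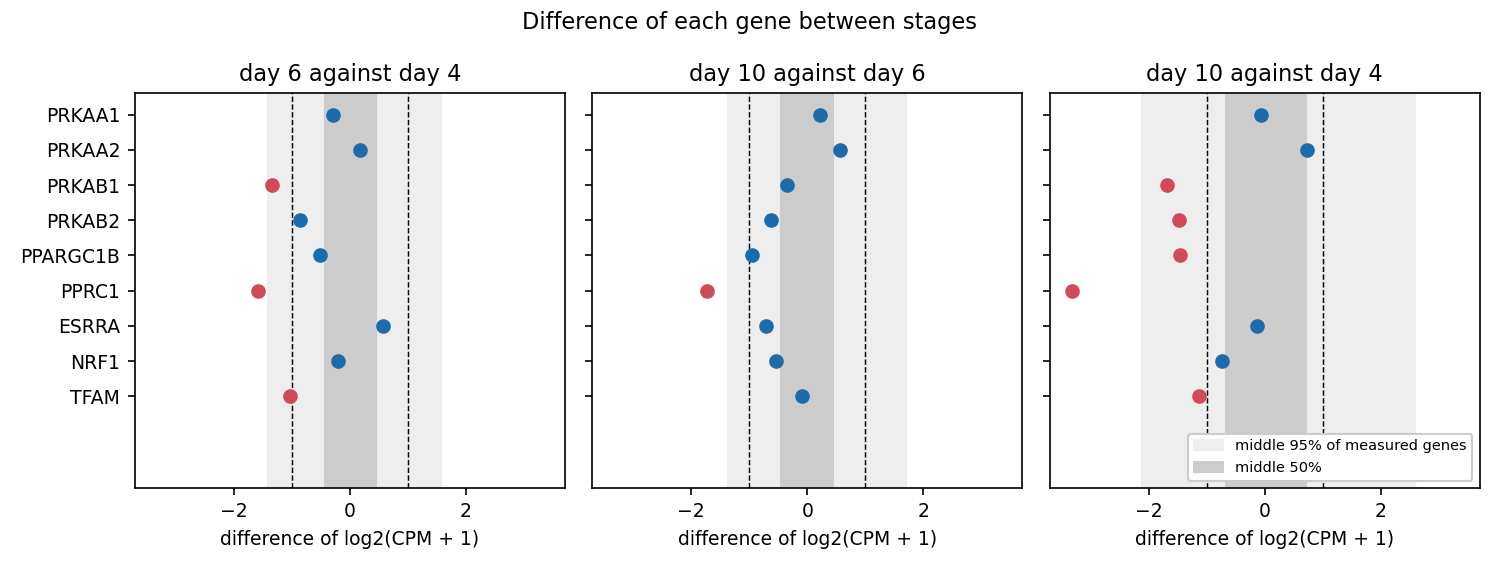
Difference of log2(CPM + 1), later stage minus earlier stage (horizontal axis), for the 9 measured regulators (rows), with red points for those that fell at least 2-fold and blue points for the rest; grey bands hold the middle 50% and 95% of the 12818 measured genes and dashed lines mark 2-fold. PPRC1 lies outside the middle 95% in all 3 panels, at -1.59, -1.73 and -3.32.

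The genes whose pattern over the 3 libraries lay nearest to each of the 5 that fell were sought among 8382 genes with a mean of at least 10 CPM, by the distance between centred log2(CPM + 1) values. With 3 libraries many genes share any simple pattern. POLE2, VCAN and RRP9 were nearest to PPRC1, at distances of 0.06, 0.07 and 0.1. DBF4B, EIF3J and ZNF593 were nearest to PRKAB1, ABRACL, TRMU and HNRNPAB to PRKAB2, and POLR3A, IGFBP4 and TCP1 to PPARGC1B, at distances of 0.01 to 0.03. ZMPSTE24, LRPPRC and INTS5 were nearest to TFAM, at 0.03 to 0.04. LRPPRC, which stabilises mtDNA-encoded messenger RNA, was at 435, 206 and 193 CPM on days 4, 6 and 10.

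Other genes of the pathway were taken from 12 lists with 147 genes in the tables, of which 144 were measured. Over the whole interval 20 of the 144 rose and 22 fell, beside 17.1% and 15.8% of all measured genes. This near-even split depended on the scaling: with TPM 12 rose and 33 fell, and with total counts 15 rose and 28 fell. So did the first step, where 14 rose and 7 fell with TMM, 7 rose and 19 fell with TPM, and 10 rose and 11 fell with total counts. The median of all genes was itself -0.31 with TPM and -0.11 with total counts over the whole interval, and -0.30 and -0.14 at the first step.

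Upstream of AMPK are the kinases that phosphorylate it and the proteins that relay nutrient stress. Of 13 measured genes 4 rose and 1 fell on day 10 against day 4. CAB39L, one of the scaffold proteins of the LKB1 kinase complex, stood at 121 CPM on day 10 against 20.4 on day 4, 5.95 times as high [5.16 to 6.89]. Its paralogue CAB39 was 2.12 times as high [1.99 to 2.25]. With TPM, and likewise with total counts, 3 genes of this list rose, and CAB39 was at 225.1 TPM on day 10 against 138.1 on day 4. The sestrins SESN3 and SESN1, stress proteins that restrain mTORC1, were 7.95 times [6.59 to 9.67] and 4.14 times [3.09 to 5.62] as high, with SESN3 at 90.5 CPM on day 10 against 11.4 on day 4. SESN2 was at 20.2 CPM on day 10 and 18.4 on day 4.

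The calcium-dependent upstream kinases did not move together. CAMKK2 was 2.79-fold lower on day 10 than on day 4 [1.82 to 4.39]. CAMKK1 was at 7.34, 18.7 and 6.69 CPM on days 4, 6 and 10, so it rose at commitment and fell after it. STRADA, the pseudokinase partner of LKB1, was 2.43-fold lower on day 10 than on day 6 [1.95 to 3.05]. The LKB1 gene itself was not analysed here.

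Genes whose proteins AMPK phosphorylates were mostly within 2-fold: of 16 measured, 2 rose and 0 fell on day 10 against day 4. The 2 were ULK1, the kinase that starts autophagy, at 64.8 CPM on day 10 against 20.1 on day 4, and PFKFB3, an activator of glycolysis, at 368 CPM on day 10 against 105 on day 4. ULK1 rose at the first step, 2.73 times the day 4 level [2.34 to 3.19], and PFKFB3 at the second, 2.47 times the day 6 level [2.34 to 2.62]. With TPM, and likewise with total counts, 2 genes of this list rose and 1 fell on day 10 against day 4. Of 10 measured kinases related to AMPK, 3 rose and 1 fell over the whole interval, or 2 and 1 with TPM. NUAK1 was at 20.5 CPM on day 10 against 6.52 on day 4, and NUAK2 at 12.3 against 3.76. MELK, a kinase of dividing cells, was 4-fold lower on day 10 than on day 4 [3.35 to 4.8]. SNRK was 2.75 times as high on day 10 as on day 6 [2.3 to 3.29].

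Partners of the PGC-1 coactivators gave 2 risers and 2 fallers among 19 measured genes on day 10 against day 4. HCFC1, a transcriptional cofactor that PPRC1 is known to bind, was at 65.5 CPM on day 10 against 188 on day 4, 2.88-fold lower [2.64 to 3.14]. KAT2A, the acetyltransferase GCN5, was 2.54-fold lower [2.17 to 2.99]. The mitochondrial deacetylase SIRT3 was at 7.35 CPM on day 10 against 2.48 on day 4, and the lysosomal regulator TFEB at 14.3 against 5.32. Neither of these 2 rises was called with TPM, where 0 genes of this list rose. The GABPA subunit of nuclear respiratory factor 2, another activator of TFAM, was at 44.1, 29.2 and 29.5 CPM on days 4, 6 and 10.

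**Figure D4:**
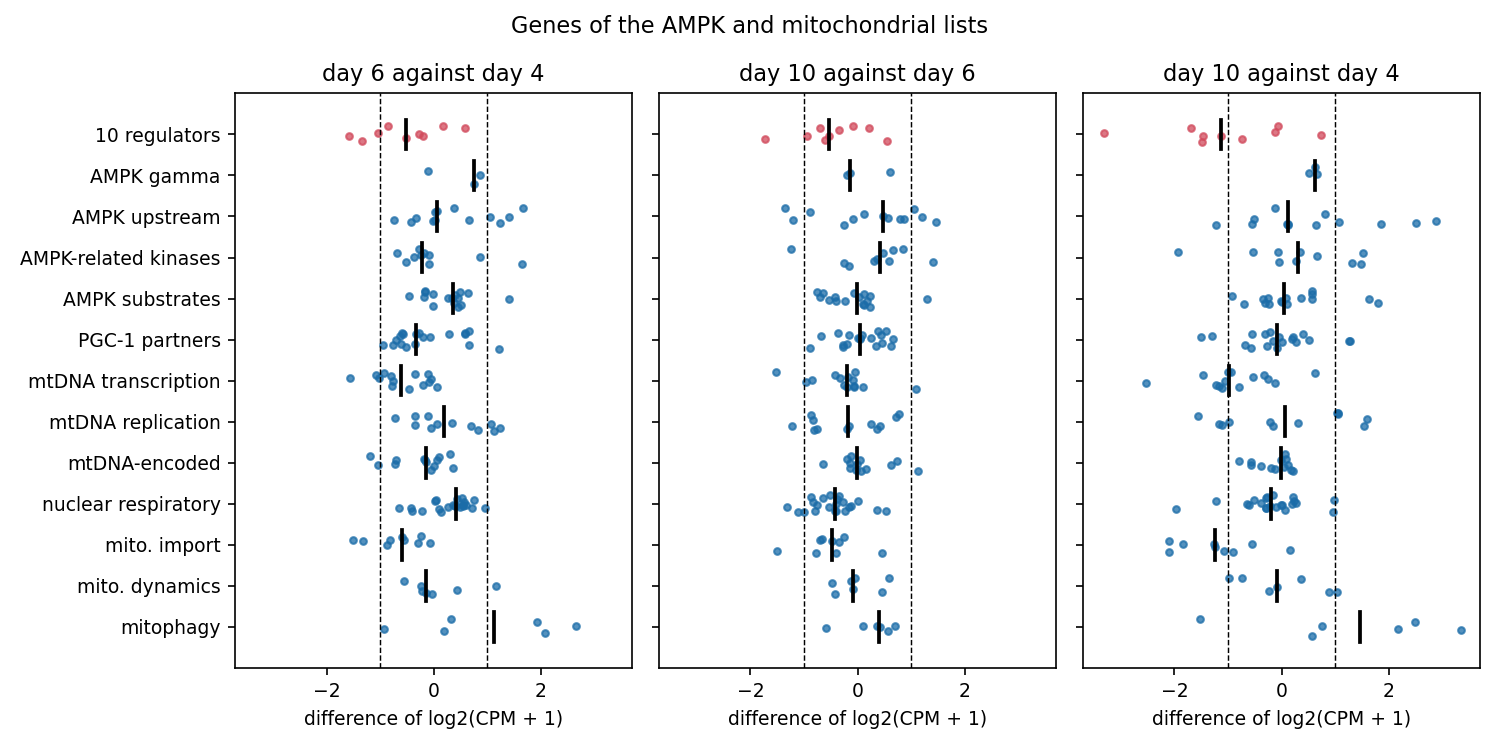
Difference of log2(CPM + 1), later stage minus earlier stage (horizontal axis), for each measured gene of the 10 regulators (red) and of the 12 other lists (blue), with list medians as black bars and 2-fold as dashed lines. On day 10 against day 4 the medians of the regulators, of mitochondrial import and of mtDNA transcription lay at -1.12, -1.25 and -0.98, and that of mitophagy at 1.46.

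TFAM acts on mtDNA, and the genes that work beside it were mostly lower too. Of 14 measured genes of mtDNA transcription and RNA processing, 6 fell and 0 rose on day 10 against day 4, and 13 had differences below 0. The RNase ELAC2, which trims mitochondrial transfer RNA, was 6.12-fold lower [5.18 to 7.27], and the termination factor homologue MTERF3 3.09-fold lower [2.29 to 4.23]. TFB2M, the transcription factor that opens mtDNA promoters together with TFAM, was at 29.6, 17.2 and 14.8 CPM on days 4, 6 and 10. It was 2-fold lower on day 10 than on day 4 [1.65 to 2.43], with a log2 difference of -0.95 that missed the threshold. The mitochondrial RNA polymerase gene POLRMT had 33, 26 and 19 fragments in the same order, and its day 10 level was 0.591 times that of day 4 [0.317 to 1.07].

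Genes of mtDNA replication were split, with 5 of 12 risen and 3 fallen on day 10 against day 4. With TPM, and likewise with total counts, 2 rose and 4 fell. TK2, a kinase that makes mitochondrial nucleotides, was at 89.1 CPM on day 10 against 30.1 on day 4, and POLG2, the accessory subunit of the mtDNA polymerase, at 20.3 against 6.06. SSBP1, which coats single-stranded mtDNA, was 2.3-fold lower on day 10 than on day 4 [2.01 to 2.63], and the helicase DNA2, which also acts in the nucleus, 3.78-fold lower [2.42 to 6.13].

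The sum of the mtDNA transcripts did not drop in CPM as TFAM did. The 13 mtDNA-encoded protein genes summed to 22103, 21704 and 21411 CPM on days 4, 6 and 10, or 2.21%, 2.17% and 2.14% of the scaled counts. Over the whole interval 0 of the 13 rose or fell, with a median difference of -0.02. In TPM the sums were 31621, 24540 and 23951, and 1 gene fell on day 10 against day 4. The median of the 13 on that scale was -0.35, beside -0.31 for all genes. At the first step, where TFAM fell, 2 of the 13 fell and 0 rose. These were ND6, at 145 CPM on day 6 against 331 on day 4, and ND3, at 83.3 against 172. With TPM 4 fell at that step, with a median of -0.52 beside -0.30 for all genes. By day 10 ND3 was back at 183 CPM, while ND6 was at 224. ND6 lies on the strand opposite to the other mtDNA protein genes, and whether fragments were counted by strand is not stated.

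**Figure D5:**
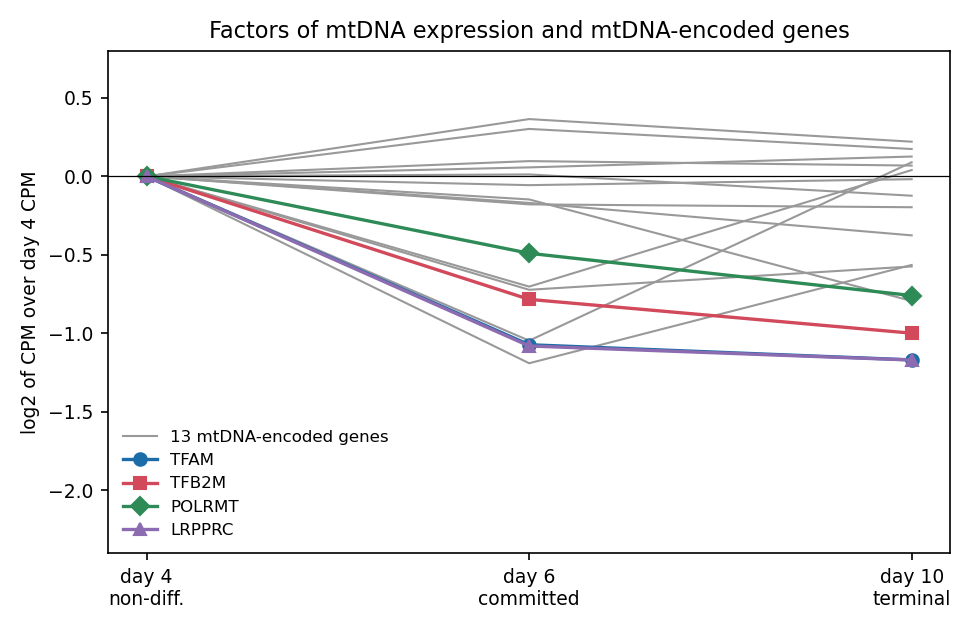
Log2 of CPM over the day 4 CPM (vertical axis) at each stage (horizontal axis) for the 13 mtDNA-encoded genes (grey lines) and for TFAM, TFB2M, POLRMT and LRPPRC, with no added pseudocount and 1 library per stage. The lines of TFAM and LRPPRC nearly coincide, which is no separate result, because LRPPRC was among the genes nearest to TFAM by these same values. On day 10 all 13 grey lines lie above both.

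Nuclear genes of the respiratory chain, many of them known targets of ESRRA and NRF1, mostly stayed within 2-fold: of 22 measured, 0 rose and 2 fell on day 10 against day 4. The 2 were cytochrome c, CYCS, at 39.1 CPM on day 10 against 155 on day 4, and the ATP synthase subunit ATP5F1B at 604 against 1412. CYCS has processed copies in mammalian genomes with which it can share reads, so its value is less certain. COX4I1 was at 376, 728 and 336 CPM on days 4, 6 and 10, with its highest level on day 6. CYCS and ATP5F1B had no such peak, at 99.3 and 1053 CPM on day 6. With TMM, 18 of the 22 lay above their day 4 level on day 6 and 4 below. On day 6 against day 4 the median of the 22 was 0.41 with TMM and 0.05 with TPM. The median of all genes was 0.00 and -0.30 on these scales, so the median of the 22 lay 0.41 and 0.34 above it. At the second step the median of the 22 was -0.41 with TMM, and 19 of 22 genes were lower.

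Of 9 measured genes for protein import and folding in mitochondria, 6 fell and 0 rose on day 10 against day 4. The import subunit TIMM50 was 4.42-fold lower [3.89 to 5.04] and the chaperonin HSPD1 4.28-fold lower [4.11 to 4.45], at 285 CPM on day 10 against 1219 on day 4. HSPD1, too, has processed copies with which it can share reads. TIMM17A was 2.87-fold lower on day 6 than on day 4 [2.57 to 3.22]. TOMM20, a receptor of the outer membrane, was at 176 CPM on day 10 and 158 on day 4.

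Of 6 measured mitophagy genes, 3 rose and 1 fell on day 10 against day 4. PINK1, the kinase that marks damaged mitochondria, was at 93.7 CPM on day 10 against 15.8 on day 4, 5.94 times as high [5.04 to 7.02]. The receptors BNIP3 and BNIP3L were 10.4 times [9.52 to 11.4] and 4.57 times [4.26 to 4.92] as high. PHB2, an inner membrane prohibitin, was 2.9-fold lower [2.71 to 3.09]. Among 7 genes of mitochondrial fusion and fission, the fission adaptor FIS1 rose, at 108 CPM on day 10 against 52 on day 4, and 0 fell. The direction of these calls turned with the scaling: with TPM 0 of the 7 rose and 2 fell, and with total counts 0 rose and 1 fell.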

How the data were processed

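RNA of RCE1(5T5) cells was sequenced in 3 libraries, 1 per stage, made with an Illumina TruSeq kit per the labels' protocols. The fragment counts that the authors deposited are expected counts per coding sequence, fractional where fragments were shared, per the file headers and values; the deposited TPM values are scaled for length and depth and written to 1 decimal. The submitters' processing notes name the build OryCun2.0. The aligner, the counter and the strand setting: not given in the sources used here.

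Fragment counts were summed per gene name, rounded and scaled with TMM factors of 1.071, 0.958 and 0.974 for days 4, 6 and 10 (edgeR 4.0.16, R 4.3.3). Differences are of log2(CPM + 1). Ratios have exact Clopper-Pearson intervals (scipy 1.17.1), and ratios within libraries exact conditional ones; both cover counting error only. The calculation was checked on simulated counts. No count test was run, because there is 1 library per stage.

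The regulators and lists were chosen with earlier results of these data known. Named besides the 10 regulators are up to 2 genes per list and direction in each comparison, with 5 CPM or more and a 2-fold difference, and the 3 nearest patterns. CAB39, BNIP3L, SESN2, GABPA, TFB2M, POLRMT, TOMM20 and the markers were chosen after their values were seen. Of the list genes, 9 took their symbol from the RefSeq gene table of mOryCun1.1 through their gene identifier, and 12 pathway genes were not analysed here.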

Additional observations from a re-analysis of the deposited data

How the results depend on the processing

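The regulators were recomputed with DESeq2 1.42.0 size factors, total counts, deposited TPM, pseudocounts of 0.1 and 5, no minimum or 5 CPM, the highest coding sequence of each gene, and a 1.5-fold threshold. With a pseudocount of 5, 3 regulators fell on day 10 against day 4, beside 1319 of the 12818 measured genes. On day 10 against day 6, 2 fell with a pseudocount of 0.1 and 4 at 1.5-fold, beside 1304 and 2458 of all measured genes. On day 10 against day 4, 1 rose at 1.5-fold, beside 3715 of all measured genes. Of 216 recomputed differences of single regulators, 204 stayed within their counting interval and 0 that were called changed sign. Part of this agreement was fixed in advance. The minimum cannot alter a single difference, and the highest coding sequence cannot for the 8 regulators with 1 coding sequence. PPRC1 ranged over -3.45 to -2.88 on day 10 against day 4.

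The counts of the 12 lists together, recomputed after the data were seen, moved with the setting, as did those of all measured genes. On day 6 against day 4, 7 fell and 14 rose with the settings used above, beside 863 and 1033 of all measured genes. At 1.5-fold 27 fell and 28 rose, beside 2310 and 2510. With TPM 19 fell and 7 rose, beside 1629 and 558. With total counts 11 fell and 10 rose, beside 1217 and 787. With a pseudocount of 5, 9 rose, beside 472. On day 10 against day 6, 31 fell and 20 rose at 1.5-fold, beside 2458 and 2449 of all measured genes. On day 10 against day 4, 22 fell and 20 rose with the settings used above, beside 2024 and 2190 of all measured genes. At 1.5-fold 35 fell and 30 rose, beside 3542 and 3715. With TPM 33 fell and 12 rose, beside 2946 and 1383. With total counts 28 fell and 15 rose, beside 2435 and 1921. With a pseudocount of 5, 13 rose, beside 1324. Why the counts moved was not tested. No paired analysis was possible because each stage has 1 library. Depth limits PPARGC1A, which had 2, 0 and 1 fragments on days 4, 6 and 10.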
